A study of Mus musculus with 55 samples.

Results

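H3K27ac, the acetylation of lysine 27 on histone H3, was mapped by ChIP-seq in mouse liver, and the regions described here are the H3K27ac peaks that were called in the livers labelled Setd8-LKO + TCPOBOP and not in the livers labelled untreated WT. Each condition had a single peak list, and gained peaks were selected on the presence of an H3K27ac call in the Setd8-LKO list with no base shared with any peak of the WT list. By this rule 7073 of the 27752 Setd8-LKO peaks were gained (25.5%, 95% Clopper-Pearson interval 25 to 26%), and the other 20679 were kept. In the opposite direction, 6241 of the 27983 WT peaks overlapped no Setd8-LKO peak (22.3%) and are called lost. The H3K27ac values therefore chose the gained peaks, and their height and length are given below as a description. All intervals of shares cover counting error only, because the peaks of a list come from the same livers and are not replicates.

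All mice were male C57Bl6 of 45 to 50 days. Setd8-LKO mice (Setd8 lox/lox-AlbCre) lack a floxed exon of Setd8 where Cre is driven by the albumin promoter, that is, in hepatocytes, and they received a single intraperitoneal injection of 3 mg/kg TCPOBOP 24 h before collection. TCPOBOP is an agonist of the nuclear receptor CAR and a mitogen for hepatocytes. The WT mice of the chromatin assays are labelled untreated, while the study's methods name a vehicle, so genotype, TCPOBOP and possibly injection changed together and cannot be told apart in these lists. H3K27ac had 3 WT and 3 Setd8-LKO samples, ATAC-seq 3 and 5, CTCF ChIP-seq 4 and 2, and Smc3 ChIP-seq 3 and 2. RNA-seq had 5 untreated WT, 5 WT + TCPOBOP and 4 Setd8-LKO + TCPOBOP libraries of whole liver, out of 55 samples in the series. Since the lists are given per condition and hold no read counts, neither the depth nor the spread between livers is known for a single peak. Whole liver holds several cell types, and fewer cells of a type and less RNA or chromatin per cell cannot be told apart.

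Setd8, encoded by Kmt5a, is the enzyme that places a single methyl group on lysine 20 of histone H4. H3K27ac is laid down by the coactivators p300 and CBP and marks promoters and enhancers in use, whose DNA is usually also open to the Tn5 transposase of ATAC-seq. CTCF is a DNA-binding protein that halts cohesin, the ring complex of which Smc3 is a subunit, and both are known for shaping chromatin loops. CAR, on binding TCPOBOP in hepatocytes, activates drug-metabolising genes of which Cyp2b10 is the classical target.

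The gained peaks were of different kinds. A first kind, 1123 peaks, overlapped an accessible region of the Setd8-LKO ATAC list. A second kind, 1428 peaks, overlapped both a CTCF and a Smc3 peak of the Setd8-LKO lists and no accessible region, and was rich in C and G. The following windows, which reach 100 bp to either side of the summit, show the second kind. They are those of highest fold enrichment that hold the SP/KLF letters GGGGCGG on either strand, which are in capitals, and the plus strand of GRCm38 is printed. The name is that of the gene with the nearest transcript start.
Rap1gap, chr4:137664743-137664943: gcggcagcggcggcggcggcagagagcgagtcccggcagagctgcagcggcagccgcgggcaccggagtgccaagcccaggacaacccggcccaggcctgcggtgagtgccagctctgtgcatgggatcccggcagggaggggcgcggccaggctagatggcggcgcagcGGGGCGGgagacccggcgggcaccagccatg
Gm9934, chr7:93080414-93080614: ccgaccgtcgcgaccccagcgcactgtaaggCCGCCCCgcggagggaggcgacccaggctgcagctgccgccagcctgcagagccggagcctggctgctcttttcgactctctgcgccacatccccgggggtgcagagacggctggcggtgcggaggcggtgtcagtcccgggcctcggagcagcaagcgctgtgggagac
Gm15812, chr13:42916433-42916633: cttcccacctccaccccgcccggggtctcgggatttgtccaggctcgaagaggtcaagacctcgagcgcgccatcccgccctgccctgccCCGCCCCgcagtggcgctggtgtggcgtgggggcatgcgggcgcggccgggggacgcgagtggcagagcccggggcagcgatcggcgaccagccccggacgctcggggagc
These 3 windows held 22, 21 and 25 CpG dinucleotides at a GC content of 76.6%, 72.6% and 76.1%. The first and the second lay at promoters, with the summit 88 and 279 bp from a transcript start, and the third lay in an intron of Phactr1, 46930 bp from the nearest start. The window at Rap1gap held part of an exon of that gene, and the window at Gm9934 lay in an exon of Gm9934 and in the coding sequence of Fam181b on the opposite strand. Their fold enrichments were 43.3, 27.5 and 24.4.

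The next windows show the first kind. Under the same limits on position, they are the accessible gained peaks of highest fold enrichment that hold an AP-1 site, TGACTCA or TGAGTCA, in capitals.
Gm23018, chr12:69537871-69538071: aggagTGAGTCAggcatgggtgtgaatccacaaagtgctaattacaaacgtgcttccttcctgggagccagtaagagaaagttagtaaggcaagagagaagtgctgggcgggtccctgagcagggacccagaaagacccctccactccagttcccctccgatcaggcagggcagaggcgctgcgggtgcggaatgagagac
Ptges, chr2:30893049-30893249: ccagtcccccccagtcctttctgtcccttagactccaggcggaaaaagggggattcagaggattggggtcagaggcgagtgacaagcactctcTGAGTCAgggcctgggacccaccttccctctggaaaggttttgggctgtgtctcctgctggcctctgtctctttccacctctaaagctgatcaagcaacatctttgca
Zfr2, chr10:81234386-81234586: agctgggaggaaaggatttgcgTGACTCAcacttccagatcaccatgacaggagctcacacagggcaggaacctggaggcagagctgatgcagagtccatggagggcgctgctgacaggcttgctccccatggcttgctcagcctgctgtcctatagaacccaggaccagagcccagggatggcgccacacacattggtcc
They held 6, 2 and 3 CpG dinucleotides at a GC content of 56.7%, 55.7% and 59.2%. The window near Gm23018 was intergenic and the windows at Ptges and Zfr2 lay in introns of those genes, while the peak at Ptges reached an exon and the peak at Zfr2 reached within 1 kb of a transcript start. None of these 3 peaks overlapped a CTCF or Smc3 peak of the Setd8-LKO lists, and the peaks near Gm23018 and Ptges were accessible in the WT ATAC list as well. Their fold enrichments were 11.7, 11.5 and 10.97, below those of the CpG-rich windows. Over all peaks of each kind the median was 8 in the accessible and 10.01 in the CTCF- and Smc3-positive inaccessible peaks.

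Gained peaks were weaker and shorter than kept ones, which the rule itself favours. The median fold enrichment over background, as MACS2 computed it, was 8.06 in gained peaks (quartiles 6.79 and 9.84), 16.5 in kept peaks and 7.67 in lost peaks of the WT list. Median length was 339 bp in gained, 700 bp in kept and 300 bp in lost peaks. The least significant gained peak had a -log10 p of 13.1 and the most significant a -log10 p of 331. At the limit of the rule, the 5 gained peaks nearest to a WT peak, beside C1qtnf6, Ptp4a1, Cyp2e1, Zfp385b and Itih3, lay 3, 7, 9, 10 and 13 bp from it and had fold enrichments of 7.47, 5.33, 10.4, 9.67 and 7.64. The 5 kept peaks with the smallest overlap, beside 2010310C07Rik, Rbfox2, Pck1, Vmp1 and Gm13421, shared 1, 6, 13, 13 and 15 bp with a WT peak and had fold enrichments of 6.45, 6.0, 5.94, 5.55 and 4.18. These gained peaks thus ranged from 5.33 to 10.4 and these kept peaks from 4.18 to 6.45.

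Most gained peaks nevertheless lay away from any WT peak. The median distance to the nearest WT peak was 11429 bp, and 1778 gained peaks (25.1%) lay over 50 kb from it. In contrast, 1238 of them (17.5%) lay within 500 bp of a WT peak, at the flank of a region that was already acetylated in the WT list. Peaks far from WT peaks differed in composition from those at flanks. The median ratio of observed to expected CpG within 100 bp of the summit was 0.79 beyond 50 kb and 0.20 between 200 and 500 bp. Of the peaks beyond 50 kb, 63.4% overlapped a Smc3 peak of the Setd8-LKO list, against 9.87% of those between 200 and 500 bp.

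The gained peaks were spread over all chromosomes. Their share of the Setd8-LKO peaks ranged from 21.9% on chromosome 16 to 28.7% on chromosome 13 among the autosomes. On the X chromosome it was lower, at 62 of 432 peaks (14.4%, 95% interval 11.2 to 18%). A further 6 gained peaks lay on scaffolds without a position and 1 on the Y chromosome.

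Promoters held a smaller part of the gained than of the kept peaks. Of the gained peaks 34.7% (33.6 to 35.8%) overlapped the 1 kb on either side of an annotated transcript start, against 66.6% of kept and 21.8% of lost peaks, a difference of -31.9 points between gained and kept (95% Newcombe interval -33.2 to -30.7). A further 29.99% of gained peaks were intronic, 24.3% intergenic and 11.1% exonic. Summits of gained peaks lay a median of 3234 bp from the nearest transcript start, those of kept peaks 281 bp and those of lost peaks 4523 bp. GC content and the CpG ratio followed the same order, with medians of 53.2% and 0.33 in gained, 64.7% and 0.68 in kept, and 47.8% and 0.20 in lost peaks.

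Accessibility was less frequent at gained peaks than at kept ones. An accessible region of the Setd8-LKO list was overlapped by 1123 gained peaks (15.9%, 15.0 to 16.8%) and by 46.9% of kept peaks, a difference of -31.0 points (-32.1 to -29.9). Of the lost peaks, 15.7% overlapped it, and a further 11.2% overlapped an accessible region of the WT list alone. Most accessible gained peaks were accessible in the WT list too: 808 of the 1123 (72.0%) overlapped a WT ATAC region, and 315 (28.1%, 25.4 to 30.8%) were accessible in the Setd8-LKO list alone. For kept peaks the latter share was 5.10%. The share of accessible peaks rested on how overlap was counted: with the summit inside the region it was 3.76% of gained and 12.7% of kept peaks, and within 500 bp it was 37.4% and 59.7%. Seen from the ATAC lists, a gained H3K27ac peak was present at 163 of the 3358 regions that were accessible in Setd8-LKO alone (4.85%) and at 892 of the 20028 shared regions (4.45%).

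CTCF and Smc3 peaks covered many gained peaks, almost entirely through sites that the WT lists did not hold. In the Setd8-LKO lists 1528 gained peaks (21.6%) overlapped a CTCF peak and 2726 (38.5%) a Smc3 peak, while in the WT lists 1.03% and 2.90% did. Kept peaks overlapped the Setd8-LKO lists more often, at 40.4% for CTCF and 59.8% for Smc3. The differences between gained and kept were -18.8 points (-19.9 to -17.6) and -21.2 points (-22.5 to -19.9). Of the CTCF-positive gained peaks 95.9% (94.8 to 96.9%) had no WT CTCF peak, and of the Smc3-positive ones 95.01% had no WT Smc3 peak. For kept peaks these shares were 86.7% and 74.5%. CTCF was seldom found without Smc3, since 97.0% of CTCF-positive gained peaks were also Smc3-positive, whereas 54.4% of Smc3-positive gained peaks were also CTCF-positive. Lost peaks rarely overlapped these Setd8-LKO lists, at 3.03% for CTCF and 5.48% for Smc3. Of the 17533 CTCF sites in the Setd8-LKO list alone, 8.57% held a gained peak and 47.2% a kept peak without a gained one. For the 16428 such Smc3 sites the shares were 14.8% and 54.0%. The lists themselves differed in size, with 20905 CTCF and 21615 Smc3 peaks for Setd8-LKO and 5838 and 13045 for WT, and the Setd8-LKO lists rested on 2 samples each. What part this difference had in the overlaps was not tested.

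**Figure D1:**
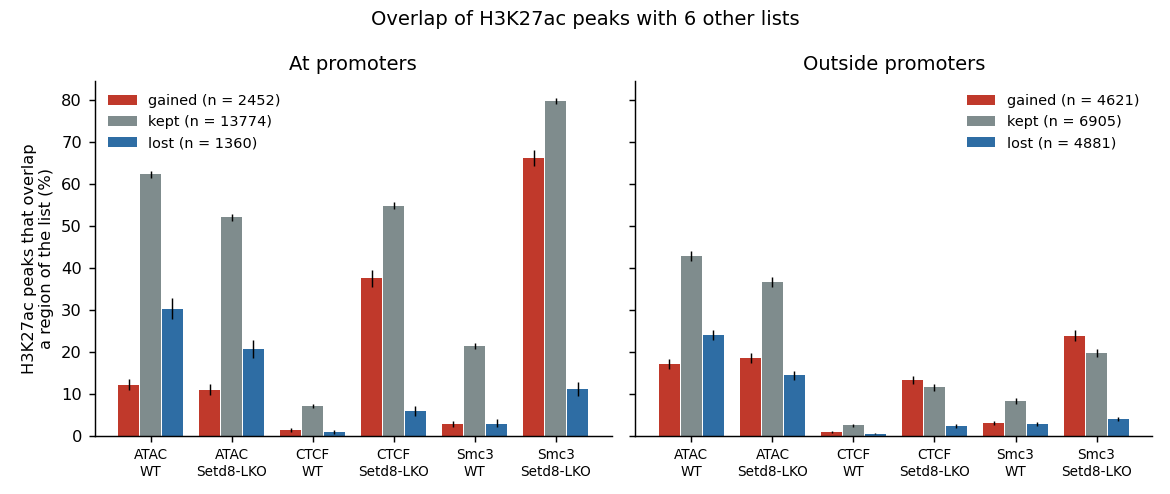
Bars give the percentage of gained, kept and lost H3K27ac peaks that overlap a region of the ATAC, CTCF and Smc3 lists of WT and Setd8-LKO, at promoters (left) and outside them (right), with 95% Clopper-Pearson intervals as lines. Gained peaks exceed kept peaks for Setd8-LKO CTCF and Smc3 outside promoters, at 13.2% against 11.5% and 23.8% against 19.7%, and stay below them for ATAC in both panels.

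Outside promoters the order of gained and kept peaks was reversed for CTCF and Smc3. There, 13.2% of gained and 11.5% of kept peaks overlapped a Setd8-LKO CTCF peak (difference 1.68 points, 0.46 to 2.92), and 23.8% and 19.7% overlapped a Smc3 peak (4.15 points, 2.61 to 5.71). At promoters 37.5% of gained and 54.8% of kept peaks were CTCF-positive, and 66.2% and 79.9% were Smc3-positive. Accessible regions were less frequent among gained peaks in both places, at 18.5% against 36.7% outside promoters and 10.97% against 52.0% at promoters.

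At like height, gained peaks lay above kept peaks for CTCF and Smc3 where the fold enrichment was from 6 to 16. Among peaks with a fold enrichment from 12 to 16, 82.6% (79.3 to 85.6%) of 591 gained peaks overlapped a Setd8-LKO Smc3 peak, against 47.3% (45.2 to 49.4%) of 2190 kept peaks. In the same class 52.3% of gained and 24.9% of kept peaks were CTCF-positive, and 11.2% and 50.7% were accessible. The GC content of these gained peaks was also higher, with a median of 70.2% against 58.2%, and their promoter share was about equal to that of kept peaks, at 56.3% and 57.3%. Between 8 and 10, Smc3 overlap was 47.3% in gained and 16.6% in kept peaks. In the lowest class, under 6, Smc3 overlap was close at 6.25% and 4.64%. The class from 16 upward held 113 gained peaks and 10525 of the 20679 kept peaks. There, gained peaks lay below kept ones, at 91.2% against 96.3% for Smc3 and 52.2% against 68.8% for CTCF.

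**Figure D2:**
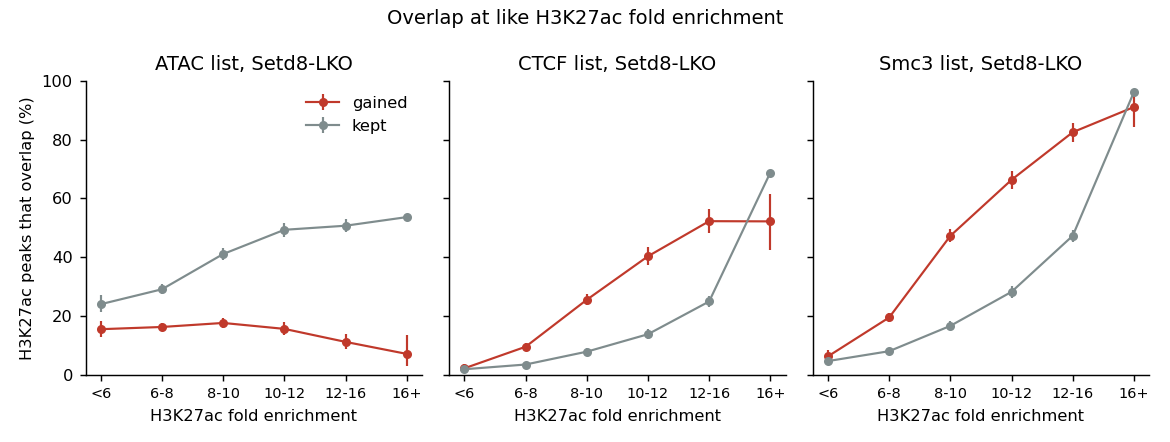
Points give the percentage of gained and kept H3K27ac peaks that overlap the Setd8-LKO ATAC, CTCF and Smc3 lists, by class of H3K27ac fold enrichment on the horizontal axis, with 95% Clopper-Pearson intervals. From 6 to 16, gained peaks lie above kept peaks for CTCF and Smc3, and in every class they lie below them for ATAC.

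The accessible and the CTCF- and Smc3-positive gained peaks hardly overlapped. Only 54 gained peaks (0.76%) were in all 3 Setd8-LKO lists, whereas 19.7% of kept peaks were. Another 1159 (16.4%) had Smc3 alone, 976 (13.8%) accessibility alone, and 3325 (47.0%) were in none of the 3 lists. Among accessible gained peaks 5.52% were CTCF-positive and 12.4% Smc3-positive, against 24.6% and 43.5% of those that were not accessible (differences -19.1 and -31.1 points, with intervals of -20.8 to -17.3 and -33.3 to -28.7).

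These kinds differed in sequence and place. The CTCF- and Smc3-positive inaccessible peaks had a median GC content of 70.6% and a median CpG ratio of 0.86, and their summits lay a median of 474 bp from a transcript start. Accessible gained peaks had medians of 50.7%, 0.22 and 6755 bp. The 3325 peaks in none of the lists resembled the latter in composition, with 48.8% and 0.18, but lay nearer to WT peaks, at a median of 2630 bp against 15293 bp. A promoter was overlapped by 61.2% of the CTCF- and Smc3-positive inaccessible peaks and by 24.0% of the accessible ones. Kept peaks that were likewise CTCF- and Smc3-positive and inaccessible lay at promoters in 87.5%, 26.3 points more often than gained ones (23.6 to 29.1).

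**Figure D3:**
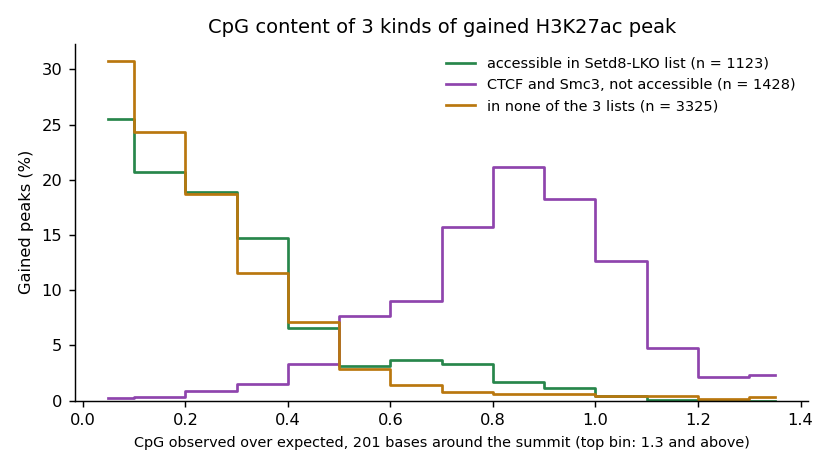
The lines give the percentage of gained H3K27ac peaks in each class of CpG observed over expected within 100 bp of the summit, for the 1123 accessible peaks, the 1428 CTCF- and Smc3-positive inaccessible peaks and the 3325 peaks in none of the 3 lists. The CTCF- and Smc3-positive peaks have a median of 0.86 and the others 0.22 and 0.18.

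Short motifs were searched as exact letters on both strands within 100 bp of the summit, and a window could hold several motifs. The SP/KLF letters GGGGCGG occurred in 25.5% of the CTCF- and Smc3-positive inaccessible gained peaks and in 3.03% of the accessible ones. Kept peaks of the former kind held them in 29.0%, so gained ones were 3.49 points lower (-6.09 to -0.80). The windows above were chosen to hold their motif and do not show how frequent it is. Over all gained peaks the share was 10.3%, against 16.9% of kept, 2.29% of lost and 14.0% of all windows of both H3K27ac lists. The AP-1 letters were found in 4.10% of accessible gained peaks, against 2.66% of the inaccessible ones (difference 1.44 points, 0.34 to 2.82) and 2.03% of accessible kept peaks (2.07 points, 1.01 to 3.42). Over all windows the AP-1 share was 2.42%. The AP-1 share of lost peaks is not given here, so these differences do not show a trait particular to gained peaks. Outside promoters gained and kept peaks hardly differed in AP-1, at 3.31% and 3.27% (0.04 points, -0.62 to 0.72). The RUNX letters AACCACA and the SOX letters ACAATGG or ACAATAG were likewise found more often in accessible gained than in accessible kept peaks, at 3.92% against 2.09% and 4.01% against 2.02%. Accessible lost peaks held them in 4.18% and 3.77%, and all windows in 2.59% and 2.62%. Outside promoters neither motif differed detectably between gained and kept peaks (RUNX -0.15 points, -0.84 to 0.56, and SOX 0.28 points, -0.39 to 0.98).

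The E-box CACGTG went the other way. It occurred in 7.49% of the CTCF- and Smc3-positive inaccessible gained peaks and in 4.39% of the kept peaks of that kind (3.10 points, 1.68 to 4.69), but in 2.05% of accessible gained and 3.41% of accessible kept peaks. All windows held it in 3.49%. The consensus of CTCF itself, searched at full length, was present in 5 of the 7073 gained windows (0.07%) and in 0.08% of all windows, so few windows held those exact letters in any class.

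Gained peaks also lay more often than kept ones in broad domains of Lamin A/C and H4K20me3 that SICER2 called from CUT&Tag. WT Lamin A/C domains held 4.95% of gained and 2.0% of kept peaks (2.95 points, 2.43 to 3.51), and WT H4K20me3 domains held 3.46% and 0.95% (2.51 points, 2.09 to 2.98). The CTCF- and Smc3-positive inaccessible gained peaks lay in WT Lamin A/C domains in 12.2%, against 3.79% of kept peaks of that kind (8.40 points, 6.68 to 10.3) and 1.34% of the accessible gained ones. In the Setd8-LKO lists the shares of all gained peaks were 3.93% for both marks.

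The strongest gained peaks were at CpG-rich promoters. The highest fold enrichment, 43.3, was at the promoter of Rap1gap, which encodes a GTPase activator that turns off Rap1 (chr4:137664439-137665256, 42169 bp from the nearest WT peak). Next came the promoters of Bmp8b, a BMP ligand, at 36.3, and of Nebl, an actin-binding protein, at 35.98. An intronic peak near Gm12811 reached 32.0, and promoter peaks of Spire2, an actin nucleator, and Gm27626 reached 31.2 and 30.4. Peaks at Fzd10, a Wnt receptor, Gm9934 and Gm47163 and an intergenic peak closest to Gm10465 completed the first 10, at 27.8 down to 26.8. Of these 10 peaks 9 overlapped a Setd8-LKO Smc3 peak and none of those 9 was accessible, whereas the peak near Gm12811 was accessible in both ATAC lists and had neither CTCF nor Smc3.

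Many gained peaks were single, but some formed dense runs. Joined over gaps of up to 12500 bp, they made 4993 runs, of which 3758 (75.3%) were a single peak, 467 held 3 or more and 84 held 5 or more. The longest series, 12 peaks with no kept peak among them, lay over 26.9 kb in Myo9b, which encodes an unconventional myosin (chr8:71290241-71317124). The second lay over Cyp2b10 (chr7:25886878-25903513), where 11 gained peaks spanned 16.6 kb from upstream of the gene into its introns, again with no kept peak among them. Runs of 10 peaks covered Usp48 and Rap1gap, Tgm2, Tbc1d1, Gstm3 and Gstm2, and Tnk2, and a run of 9 covered Chd1l and Fmo5. A run of 11 peaks lay in Slc3a1, a subunit of the cystine transporter. These dense runs had little CTCF or Smc3: the 10 runs held 0 to 2 CTCF-positive and 0 to 4 Smc3-positive peaks each.

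At Cyp2b10 the gained peaks had fold enrichments of 4.8 to 16.3. The highest, with a fold enrichment of 16.3, was at chr7:25895490-25897406, at the promoter, and its neighbour, also at the promoter, at chr7:25897664-25899752, had 14.4 and was accessible in the Setd8-LKO list and not in the WT list. A peak further upstream, at chr7:25887959-25889673, had 14.4 and was also accessible in Setd8-LKO alone. No WT H3K27ac peak lay within 98173 bp of the run. Only the last peak of the run, at chr7:25903123-25903513, overlapped CTCF and Smc3.

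Transcripts were then set beside the gained peaks. Each of the RNA tables is restricted to genes that had been selected for a change against untreated WT, with 3900 genes in that of Setd8-LKO + TCPOBOP and 719 in that of WT + TCPOBOP. A gene absent from them may therefore be unchanged or unexpressed, and shares are given over all annotated genes. Counts were tested by quasi-likelihood in edgeR, p-values were adjusted by Benjamini-Hochberg with the 21951 protein-coding genes as the number of tests, and genes that changed at least by 1 on the log2 scale with an adjusted p below 0.05 were called. Kmt5a, the targeted gene, was higher in the libraries labelled Setd8-LKO, with normalized counts of 1313 to 1465 against 563 to 761 (log2 fold change 1.08 ± 0.14, SE, edgeR adjusted p = 1.79e-04). By DESeq2 size factors over the listed genes it was 0.27 and not called. The count covers the whole gene and does not resolve the deleted exon. The label was therefore not checked by this count, and the groups are named by their labels. Albumin, the product of hepatocytes, was abundant in all libraries, with a mean normalized count of 894982 in untreated WT and 353090 in those labelled Setd8-LKO.

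Listed genes with a gained peak at the promoter were mostly at a low level in untreated WT. A gained peak and no WT peak at the promoter was found for 1655 annotated genes, of which 237 were listed and 220 had enough counts for the test. Of these, 169 were higher and 31 lower in the libraries labelled Setd8-LKO, beside a background over the listed genes of 54.6% called higher, 37.2% called lower and 91.8% called in either direction. Among protein-coding genes tested, the median normalized count in untreated WT was 15.8 with a gained and no WT promoter peak and 86.8 over all. Genes at so low a level can pass the filter on low counts through the libraries labelled Setd8-LKO alone and can hardly be called lower, so the excess of rises over falls is given as a description. The groups did not overlap in 188 of the 220 genes, where the background over listed genes was 86.8%. Scaling by DESeq2 size factors over the listed genes moved the median of all of them from 1.16 to 0.30 and the split of all calls from 2036 higher and 1386 lower to 834 and 1495. With it 152 of the 169 were tested and kept their direction, and 107 were still called higher.

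Among protein-coding genes the state of the promoter went with the share that was called. Of the 1148 protein-coding genes with a gained and no WT promoter peak, 12.6% (10.8 to 14.7%) were higher and 1.92% lower. For the 717 genes with a gained peak beside a WT peak the shares were 18.1% (15.4 to 21.2%) and 5.44%. For the 10344 genes with kept peaks only, they were 9.0% and 5.41%. For the 207 genes with lost peaks only they were 8.70% and 23.7%, and for the 8846 genes with no H3K27ac peak 4.66% and 2.17%. Gained promoters thus exceeded promoters without a peak by 7.97 points in genes that were higher (6.12 to 10.1). Over promoters that held kept peaks only, the excess was 3.63 points (1.7 to 5.7).

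The accessible kind stood apart. Of the 91 protein-coding genes whose gained promoter peak was accessible in the Setd8-LKO list, 34 were higher (37.4%, 27.4 to 48.1%) and 2 lower, while of the 1057 genes with an inaccessible gained promoter peak 10.5% (8.72 to 12.51%) were higher and 1.89% lower. The difference in the share of higher genes was 26.9 points (17.4 to 37.3). The column headers sort the libraries into run A and run B, and what these runs are is not given in the sources used here. Within them the shares of higher genes were 24.2% and 4.83% in run A, with 1 Setd8-LKO library, and 30.8% and 7.85% in run B. Genes with an inaccessible gained promoter exceeded those without any peak by 5.84 points (4.08 to 7.88), while their difference from those with kept peaks was not detectable in genes that were higher (1.5 points, -0.30 to 3.57). In genes that were lower they stayed below those with kept peaks, at 1.89% against 5.41% (-3.52 points, -4.33 to -2.43). The mean level in untreated WT was low for these tested genes, with a median normalized count of 13.0 at inaccessible and 28.8 at accessible gained promoters, against 116 for kept ones, which leaves the former little room to be called lower. Among inaccessible gained promoters, 22.1% (12.9 to 33.8%) of the 68 genes without a Smc3 peak and 9.71% (7.93 to 11.7%) of the 989 with one were higher. The tested genes of these sets had a median normalized count in untreated WT of 102.5 without Smc3 and 10.9 with it. What part this level had in the shares was not tested.

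**Figure D4:**
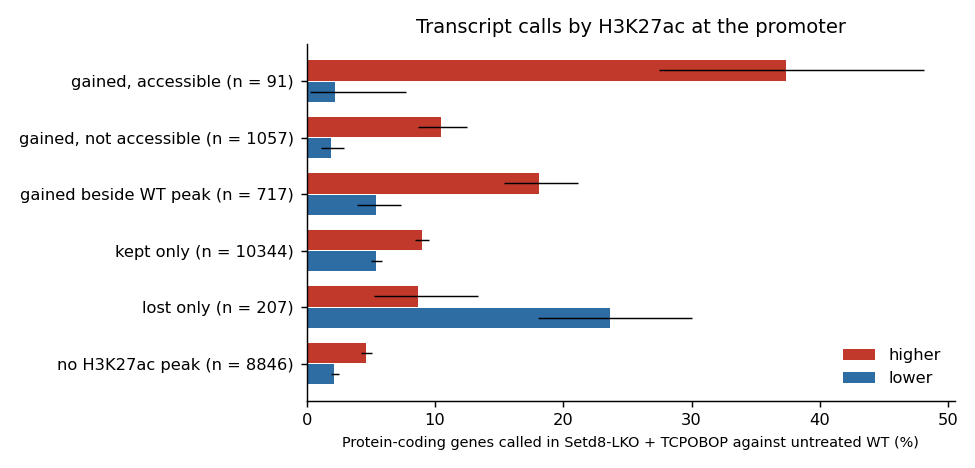
Bars give the percentage of protein-coding genes called higher or lower in Setd8-LKO + TCPOBOP against untreated WT, by the H3K27ac peaks at their promoter, with 95% Clopper-Pearson intervals. Genes with an accessible gained promoter peak reach 37.4% higher, and genes with lost peaks alone reach 23.7% lower.

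Genes with more gained peaks were called higher more often. Of the 17095 protein-coding genes without a gained peak in the gene or within 10 kb of it, 6.19% were higher, of those with a single gained peak 10.5%, with 2 gained peaks 12.51%, with 3 or 4 gained peaks 18.3% and with 5 or more 25.8% (18.5 to 34.3%). The share that was lower stayed between 4.49% and 5.01% up to 4 gained peaks and was 9.38% beyond. The median gene length rose along these classes from 15.6 to 82.9 kb, and its part in the shares was not tested.

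The genes with the largest rises among those with a gained promoter peak began with the CAR target Cyp2b10. Its normalized counts were 28, 25, 70, 28 and 106 in the untreated WT libraries and 35767, 31592, 66038 and 55164 in those labelled Setd8-LKO (log2 fold change 9.84 ± 0.61, SE, edgeR adjusted p = 2.56e-06). Ly6d, a GPI-anchored surface protein, had 8, 10, 30, 13 and 11 against 5445, 4558, 2645 and 4654 (8.19 ± 0.42, edgeR adjusted p = 9.65e-07). For both genes every library labelled Setd8-LKO lay far above every WT library. Akr1b7, an aldo-keto reductase and a known CAR target, had 3 to 12 against 1010 to 1574 (7.44 ± 0.38), and Cyp2c39, a cytochrome P450 of the Cyp2c family, had 16 to 41 against 899, 4308, 4432 and 5761 (7.08 ± 0.56).

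A group of these genes was nearly silent in untreated WT liver. Rbm24, an RNA-binding protein of muscle, had 2 reads over the 5 WT libraries and 1076 over the 4 labelled Setd8-LKO, a ratio of 485 with a counting interval of 134 to 4012. Pkp1, a plakophilin of desmosomes, had 2 and 803 reads (ratio 362, 99.9 to 2995), and Krt79, a keratin of epithelial appendages, had 1 and 210 (189, 33.6 to 7516). Cacna1b, a neuronal calcium channel subunit, had 3 and 505 reads (152, 51.7 to 739). Gm26568 and Gm5420, which carry only a model name, had 3 reads each in WT and 280 and 250 reads in the libraries labelled Setd8-LKO (84.2, 28.5 to 411, and 75.2, 25.4 to 367). Of these 6 genes only Krt79 had an accessible gained peak within 10 kb, with 2 of its 5.

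Among the remaining large rises, Ccnb1, the mitotic cyclin B1, had 2, 6, 9, 6 and 14 against 447, 313, 559 and 410 (5.80 ± 0.38, edgeR adjusted p = 3.61e-06), and its only gained peak was an accessible one at the promoter. Fam83a, a protein linked to growth factor signalling, had 4 to 11 against 707 to 1378, with 7 gained peaks. Prelid2, a mitochondrial lipid transfer protein, had 1 to 8 against 425 to 703 and an accessible promoter peak with a fold enrichment of 26.3. Corin, a serine protease that cleaves the precursor of atrial natriuretic peptide, had 0 to 7 against 214 to 436, and Hr, the hairless corepressor, had 4 to 22 against 386 to 790. By the rule that chose them, the groups did not overlap in any of these 15 genes.

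Falls with a gained promoter peak were fewer and smaller. Kcnk10, a potassium leak channel, had 33, 51, 51, 26 and 76 in untreated WT and 2, 2, 0 and 2 in the libraries labelled Setd8-LKO (log2 fold change -5.20 ± 0.55, edgeR adjusted p = 5.41e-05). Rfx4, a transcription factor of the RFX family, had 28 to 69 against 0 to 6 (-3.99 ± 0.61), and Elavl4, a neuronal RNA-binding protein, had 6 to 21 against 0 to 2 (-3.84 ± 0.58). Lama3, a laminin chain, had 175 to 226 against 18 to 27 and 6 lost peaks beside its single gained one. Adrb3, the beta3 adrenergic receptor, had 252 to 553 against 27 to 84, and the overlapping antisense gene Gm45470 had 135 to 294 against 13 to 47. Whether strand was used in counting is not given in the sources used here, so reads of these overlapping genes cannot be told apart. The endocytic receptor gene Lrp2, the non-coding genes Gm21286 and Hectd2os, and Mup10 also fell, by 3.00, 2.88, 2.74 and 2.52 on the log2 scale. Mup10 is a major urinary protein gene, and near-identical members of that family can share reads.

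**Figure D5:**
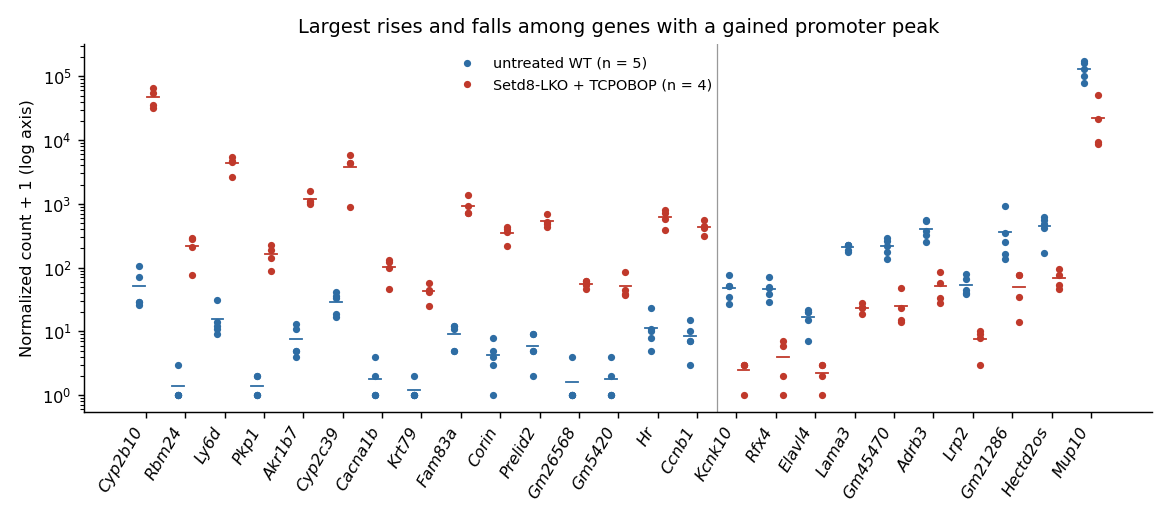
Points are the normalized counts plus 1 of single libraries, on a log axis, for the 15 largest rises (left of the line) and the 10 largest falls (right) among genes with a gained promoter peak, and short lines are group means plus 1. As the choice of genes required, the 4 libraries labelled Setd8-LKO lie entirely above or entirely below the 5 untreated WT libraries.

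Large numbers of gained peaks did not always go with a rise. Among the 10 genes with the most gained peaks in the gene or within 10 kb, Tbc1d1, a Rab GTPase activator of glucose transport, had 13 and rose from 149 to 273 normalized counts in WT to 617 to 703 (1.65 ± 0.18). Myo9b had 12 and 570 to 847 against 1383 to 1661 (1.12 ± 0.15), and Antxr1, an anthrax toxin receptor that binds collagen, had 10 and 18 to 49 against 85 to 183 (1.97 ± 0.33). By DESeq2 size factors Tbc1d1 and Myo9b were no longer called, at 0.85 and 0.30. Slc3a1, with 11 gained peaks and none of them accessible, fell, from 1160, 1072, 3572, 2762 and 3285 to 485, 389, 588 and 372 (-2.37 ± 0.39, edgeR adjusted p = 0.00105). In untreated WT its counts were lower in both run B libraries, replicates 1 and 2, than in the others, and its log2 fold change was -1.20 within run B and -3.11 within run A. Gse1 and Pde4d, with 13 each, and Fars2 and Usp48, with 11 and 10, were not listed. The most peaks, 51, fell to Gm20388, an annotated gene that spans many others (chr8:119910841-124345722) and was not listed either.

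At the genes under the strongest peaks, Rap1gap rose from 50 to 80 normalized counts in untreated WT to 724 to 941 (3.71 ± 0.18), Nebl from 13 to 28 to 382 to 550 (4.54 ± 0.25), Spire2 from 1 to 4 to 69 to 140 (5.06 ± 0.35) and Bmp8b from 85 to 140 to 515 to 670 (2.46 ± 0.19). Gm12811, Gm27626, Fzd10, Gm9934, Gm47163 and Gm10465 were not listed. In the dense runs Tgm2, a transglutaminase, rose from 2308 to 4292 to 13337 to 18336, and Fmo5, a flavin monooxygenase, from 12111 to 20745 to 45453 to 59951. Every gene named in this paragraph with a value had groups that did not overlap, where the background over listed genes was 86.8%.

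Lists of genes were then asked how many members had a gained peak in the gene or within 10 kb, beside 22.1% of protein-coding genes. The lists were chosen with earlier results of these data known, so their counts are given as a description. Calls are to be read against 7.5% of protein-coding genes called higher and 4.61% called lower, and, over the listed genes tested, 54.6% and 37.2%. For CAR targets it was 12 of 16 (75%), with 39 gained peaks, and every one of the 16 was called higher in Setd8-LKO + TCPOBOP, where 54.6% of the listed genes were. Besides Cyp2b10, Gstm3, a glutathione transferase, had 8 gained peaks and normalized counts of 1871 to 5255 in WT and 59888 to 91487 in the libraries labelled Setd8-LKO. Cyp2c55, a P450, had 3 gained peaks of which 2 were accessible, and 95 to 528 against 10499 to 17508. Cyp2c29 had 3 and 17700 to 27334 against 230663 to 287271. Abcc4, Cyp2b9, Gadd45b and Slc7a11 were higher without a gained peak. Members of the Cyp2b, Cyp2c and Gstm families are alike in sequence, and how reads shared by such copies were counted is not given in the sources used here.

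In the table of WT mice that had also received TCPOBOP, 15 of the 16 CAR targets were listed and 14 were higher, beside a background over that table of 57.6% called higher and 77% called in either direction. The groups did not overlap in any of the 15 CAR targets, where the background over that table was 82%. Both comparisons share the untreated WT libraries, with the same scaling factors. Cyp2b10 had 53827 to 61594 normalized counts in WT + TCPOBOP (log2 fold change against untreated WT 10.12 ± 0.55), and Gstm3 21647 to 45592 (3.26 ± 0.33). Of the 237 listed genes with a gained promoter peak, 38 were in this table, with 25 higher and 6 lower. Among the 15 largest rises Akr1b7, Cyp2c39, Krt79 and Prelid2 were called higher there as well, besides Cyp2b10. Among the 10 largest falls Kcnk10, Rfx4, Lrp2 and Hectd2os were called lower there, with log2 fold changes of -1.68, -2.16, -1.78 and -3.83. The other falls were not listed in that table. The values of Prelid2 were 32 to 64 in WT + TCPOBOP and 425 to 703 in Setd8-LKO + TCPOBOP. Ccnb1 was at 10 to 36 (log2 fold change 1.67, edgeR adjusted p = 0.14) and was not called. No H3K27ac list of WT + TCPOBOP liver was analysed here.

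Of 19 mitosis genes and cyclins 6 had a gained peak (31.6%), near the background of 22.1%. All 18 listed members were higher, where 54.6% of listed genes tested were. Of the 8 gained peaks at these genes 5 were accessible. Plk1, the mitotic kinase, had an accessible gained promoter peak with a fold enrichment of 7.5 and normalized counts of 5 to 15 against 207 to 321 (4.60 ± 0.31). Top2a, the topoisomerase of chromosome condensation, had an accessible promoter peak of 12.49 and counts of 15 to 57 against 469 to 770 (4.26 ± 0.37). Bub1, a kinetochore kinase, had an inaccessible one and counts of 0 to 11 against 53 to 114, and Ccnd1, cyclin D1, had 3 gained peaks in the gene or within 10 kb of it, 1 of them accessible, and 439 to 577 against 4450 to 11853. Of 14 DNA replication genes 4 had a gained peak (28.6%), again near the background. All 11 listed members were higher, beside the same 54.6%. Among them were Mcm2, with 2 gained peaks, and Mcm5, both subunits of the replicative helicase.

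Targets of p53, the transcription factor of the DNA damage response, had a gained peak in 6 of 17 (35.3%, beside 22.1%). All 11 listed members were higher, beside 54.6% of listed genes tested called higher and 37.2% called lower. Gdf15, a stress cytokine, had 3 gained peaks, the highest with a fold enrichment of 15.6 at 200 bp from a WT peak, and counts of 67 to 167 against 2081 to 3791 (4.66 ± 0.31). Btg2, an antiproliferative factor, had 2 gained peaks and counts of 140 to 576 against 705 to 1199 (1.93 ± 0.41). Tnfrsf10b, a death receptor, had a single gained promoter peak that was far from WT peaks, at 34240 bp, and counts of 4 to 5 against 117 to 142 (4.73 ± 0.22). Of 14 AP-1 and immediate early factors 6 had a gained peak (42.9%), and of the 10 listed members 8 were higher. Fosl1, an AP-1 subunit, had its gained peak at the promoter but was not listed. Among 18 secreted factors of senescent cells 5 had a gained peak (27.8%), near the background. Of the 11 members tested 10 were higher, among them Gdf15.

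Of 17 genes of bile duct and progenitor epithelium 5 had a gained peak (29.4%), near the background of 22.1%. Of the 13 members tested 11 were higher, beside 54.6% of listed genes tested. None of the 10 gained peaks at these genes was accessible. Prom1, a membrane protein of progenitor cells, had 4, of which both at the promoter were CTCF- and Smc3-positive, and counts of 9 to 57 against 387 to 1565 (5.04 ± 0.50). Cldn7, a tight junction protein, had 3 promoter peaks with Smc3, and Krt7, a keratin of bile ducts, had 1. The summed normalized counts of the listed members of this list were 4342 to 5466 in WT and 9502 to 20635 in the libraries labelled Setd8-LKO. Of 11 oncofetal genes 4 had a gained peak (36.4%), and all 3 members tested were higher. Igf2bp1, an RNA-binding protein of fetal tissue, had 4 gained peaks and was not listed. Igf2, a fetal growth factor, had 2, and its counts were 3 to 9 in WT and 764, 471, 10 and 26 in the libraries labelled Setd8-LKO, so that it was high in replicates 1 and 2 alone and did not pass the filter on low counts. Of 22 genes of the cytoskeleton, annexins and YAP targets 4 had a gained peak, near the background. Of the 15 members tested 14 were higher, Tpm1 having 5 gained peaks.

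Genes of hepatocyte metabolism and identity had a gained peak in 6 of 20 (30%), near the background of 22.1%. All 14 listed members were lower, beside 37.2% of listed and 4.61% of all protein-coding genes called lower. Hnf4a, the nuclear receptor of hepatocyte identity, had 3 gained peaks beside 7 kept and 2 lost ones and was not listed. Cyp8b1, the sterol 12-hydroxylase of bile acid synthesis, had 1 gained, 2 kept and 7 lost peaks and fell by 3.61 on the log2 scale. The summed counts of the listed members were 956410 to 1677685 in WT and 431281 to 598895 in the libraries labelled Setd8-LKO.

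Gained peaks at markers of other liver cells were uneven. Of 8 macrophage genes 1 had a gained peak, Cd14, at its promoter, of 7 neutrophil genes none, of 8 lymphocyte genes 1, of 9 genes of stellate cells and fibroblasts 2, and of 7 endothelial genes 4 (57.1%). Listed members numbered 2, 2, 1, 5 and 1. Their summed normalized counts moved from 112 to 332 in WT to 587 to 863 for macrophages, from 6 to 100 to 71 to 121 for neutrophils, and from 9 to 30 to 2 to 9 for lymphocytes. They moved from 2273 to 3474 to 5873 to 13697 for stellate cells and fibroblasts and from 89 to 198 to 196 to 330 for endothelium. What part other cells had in the gained peaks was not tested.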

How the data were processed

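Members, gene lists and motifs were chosen with earlier results of these data known. Per the submitters' processing notes and the study's methods, reads were trimmed with Trimmomatic 0.39, aligned to mm10 with HISAT2, cleared of duplicates, poorly mapped and blacklisted reads, and ChIP-seq and CUT&Tag reads were reduced to the smallest sample, which is not stated for ATAC-seq. The authors called peaks with MACS2 2.2.7.1 at a strict p threshold and domains with SICER2. For each deposited peak the authors' file gives a fold enrichment and a −log10 p, and for each deposited domain a score that was not used beyond the position. Whether replicates were pooled before calling is not stated. For RNA-seq, the deposited tables hold raw counts and normalized counts of the genes the authors selected with metaseqR. Normalized counts equal raw counts times 1 factor per library, within 0.126% and 0.0931% in the 2 tables, and these factors served as scaling. The 54 columns of the authors' own fold changes and p-values and 114 columns of transformed values were not used.

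Overlap of 1 bp or more was computed in Python 3.11.15 with pandas 2.3.3, numpy 2.4.6 and scipy 1.17.1, and figures were drawn with matplotlib 3.10.9. Promoters, 1 kb to either side of a transcript start, come from the GENCODE annotation of GRCm38, and windows were read with pysam 0.24.0. For each table alone, glmQLFit and glmQLFTest of edgeR 4.0.16 (R 4.3.3) were run on the libraries of the groups compared, after filterByExpr with a minimum count of 10. DESeq2 1.42.0 served as an alternative. Listed genes summed to 11240000 to 12780000 counts per untreated WT library and 5734000 to 8231000 per library labelled Setd8-LKO, which is not the depth, since only selected genes are listed. P-values measure the spread between these libraries. On simulated data the test recovered 188 of 200 genes changed by a log2 fold of 2 among 3726 genes with 3 false calls (Setd8-LKO + TCPOBOP), and 190 of 200 among 679 with 0 false calls (WT + TCPOBOP).

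Named peaks are the 10 of highest fold enrichment, the 10 longest runs by number of peaks, and 5 on either side of the rule's limit. Named genes are the 15 largest rises and 10 largest falls, by fitted fold change and with groups that do not overlap, among called genes with a gained and no WT promoter peak, the 10 genes with the most gained peaks, Kmt5a, members of the gene lists and genes at the named peaks. Windows are those of highest fold enrichment that hold the motif, overlap no annotated untranslated region and do not lie on chromosome 18. Among list members with as many gained peaks, examples were picked after their values were seen, as were Tgm2 and Fmo5 among the genes of the dense runs. Some items that the rule names are not reported here.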

Additional observations from a re-analysis of the deposited data

Results flagged for a closer look

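Of 71 groups of libraries examined over the named genes, 8 had a library far from the others by Dixon's test at the 95% level, which chance does in about 1 of 20 groups. In untreated WT, Rbm24 had a normalized count of 2 in replicate 5 and 0 in the others, Krt79 1 in replicate 2 and 0 in the others, and Gm26568 3 in replicate 3 and 0 in the others. These are single reads or a few reads at the limit of counting. Ly6d had 30 in WT replicate 3 against 8 to 13, and Gm21286 had 919 in WT replicate 4 against 136 to 351. In the libraries labelled Setd8-LKO, Akr1b7 had 1574 in replicate 2 against 1010 to 1089, Gm5420 had 84 in replicate 4 against 36 to 43, and Kcnk10 had 0 in replicate 3 against 2 in each of the others. In each of these genes all libraries of the other group lay on the same side of the outlying value as of the rest.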

How the results depend on the processing

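Of the alternatives, 85 values of the main results stayed within the spread or within 1.5 times of the reported value and 34 did not. By DESeq2 size factors 152 of the 169 higher genes with a gained promoter peak were tested and kept their direction. Without single untreated WT libraries 29 to 30 of the 31 lower genes did. Genes that failed the count filter of a fit are not counted as kept. For listed genes changed in Setd8-LKO + TCPOBOP (3422), leaving out single libraries gave 3065 to 3431, the fit with a replicate block 2860, and run A alone, with fewer libraries, 1092. For WT + TCPOBOP (523) the range was 446 to 528, with 280 by DESeq2 size factors, 275 by TMM, 323 with the replicate block and 248 within run A. Same-numbered libraries did not deviate together (correlations of -0.155 to 0.0656 and -0.434 to 0.114, none best with its own number), so the numbers do not pair them. By size factors the split of WT + TCPOBOP calls went from 391 higher and 132 lower to 74 and 206.

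Requiring no WT peak within 1000 bp left 5368 gained peaks, requiring under 50% reciprocal overlap gave 10304, and a -log10 p of at least 20 in both lists gave 6784. In that order, CTCF overlap was 26.68%, 20.31% and 23.33%, Smc3 overlap 46.91%, 35.87% and 40.95%, and the promoter share 36.12%, 37.97% and 36.23%. Overlap with accessible regions was 21.92% under the second and 16.8% under the third definition, and AP-1 2.44% under the first. With the summit inside the other peak, ATAC was 3.761% and CTCF 17.72%, and within 500 bp ATAC was 37.44%, CTCF 24.66% and Smc3 41.85%. The promoter share was 28.97% with promoters of 500 bp, 47.15% with 2500 bp and 25.38% with protein-coding transcripts only. AP-1 was at 1.329% within 50 bp and 8.95% within 250 bp of the summit. The difference between gained and kept peaks kept its sign in each of these settings for which it was computed.

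The share of changed genes with a gained promoter peak that were higher was 73.61% by nearest transcript start within 50 kb, 76.43% by size factors and 94.38% within run A, and 83.6 to 85.64% without single libraries. The share of genes higher at accessible gained promoters was 24.18% within run A and 36.26 to 39.56% without single libraries. At inaccessible ones it was 6.528% by size factors, 4.825% within run A, 7.852% within run B and 9.177 to 11.64% without single libraries. The runs and their alternatives were chosen after seeing the data, and the cause of these shifts was not tested. Of 30 tests of named genes, 3 were no longer called by size factors (Tbc1d1, Myo9b and Kmt5a), 10 within run A and 2 within run B (Mup10 and Antxr1). Peak lists hold no read counts, so depth sets no limit that could be computed for a single peak.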
